A study of Bos taurus with 21 samples.

Results

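The genes described here are myostatin (*MSTN*) and the activin pathway it shares: the ligand subunit *INHBA*, the antagonists *FST* and *FSTL3*, the receptors *ACVR2A*, *ACVR2B* and *ACVR1B*, and the transducers *SMAD2*, *SMAD3* and *SMAD7*. Every non-control probe whose RefSeq transcript belonged to 1 of these 10 genes was taken, which gave 17 of the 43653 probes on the array. They covered 9 of the 10 genes, because no probe carried an *ACVR1B* transcript. Of the 17, 13 probes for 8 genes were bright enough to be among the 20132 probes tested. The single *SMAD7* probe was well above background on 1 of 21 arrays, with a processed intensity of 4.02 to 26.5, so *SMAD7* had no usable probe.

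The arrays measured mRNA in skeletal muscle of 21 bovine foetuses, 1 array per foetus, from the muscular breed Blonde d'Aquitaine (BA) and from Charolais (CH), the beef breed it was compared with. At 110 days post-conception (dpc) 3 BA and 2 CH foetuses were sampled, at 180 dpc 2 and 3, at 210 dpc 3 and 3, and at 260 dpc 2 and 3. The BA foetuses were 3 males and 7 females, the CH foetuses 5 males and 6 females, and each breed descended from 2 sires. Sex was not balanced within stages. All CH foetuses at 110 dpc and all BA foetuses at 180 and 260 dpc were female, while every other group held both sexes. Differences between breeds at these stages, and between these stages, are thus partly mixed with sex. The sample labels name the Longissimus thoracis, while the methods of the study name the *m. Semitendinosus*, so the muscle is not settled here. The study attributes part of the BA phenotype to a *MSTN* mutation, but these foetuses were not genotyped for it. The labels thus give breed, sire and sex, but no *MSTN* genotype. Of 9 muscle fibre markers 8 had a probe, and all 8 were well above background on every array.

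Myostatin is a secreted member of the TGF-beta family that restrains muscle growth, and animals that lack its function have enlarged muscles. It binds a type II activin receptor (ACVR2B or ACVR2A), which engages a type I receptor such as ACVR1B and leads to phosphorylation of SMAD2 and SMAD3. Follistatin (FST) and FSTL3 bind myostatin and activins outside the cell and keep them from their receptors, and SMAD7 is an inhibitory SMAD that the pathway itself induces.

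Values are log2 processed intensities after each array was scaled to its 75th percentile, so a difference of 1 is a doubling of intensity. The level of one probe cannot be set against that of another. A value was called when its limma p, adjusted by Benjamini-Hochberg over all tested probes, was under 0.05. The number of probes well above background ran from 29017 to 34501. In bulk muscle, fewer cells that make a transcript and less transcript per cell cannot be told apart.

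Between the breeds *MSTN* was higher and *FST* was lower in BA, and none of the other 6 tested genes was called. That is 2 of 8 genes by their brightest tested probe, with 1 higher and 1 lower, where 0.358% of all tested probes were called (0.194% higher and 0.164% lower). The median difference of the 8 genes averaged over stages was 0.05, against -0.01 for all tested probes. At 110 dpc *FST* was the 1 gene called of 8, where 0.273% of probes were called and 0.0447% were called as lower. At 180, 210 and 260 dpc 0 of 8 were called by limma, where the shares of all probes were 0.00993%, 0% and 0%. At an unadjusted p under 0.05 the counts were 1, 2 and 2 of 8 at those stages: *MSTN* at each, *ACVR2B* at 210 dpc and *FST* at 260 dpc. Over all 20132 tested probes the counts at that threshold were 1242, 1054 and 1075.

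**Figure D1:**
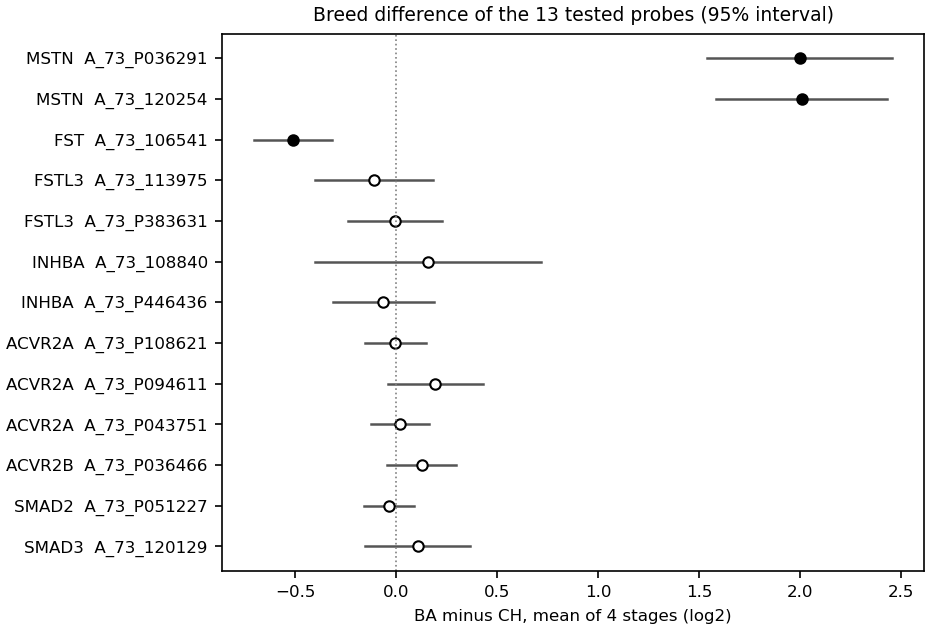
Difference between BA and CH averaged over the 4 stages (x axis, log2) for each of the 13 tested probes of the pathway, with the 95% interval from limma; filled points passed an adjusted p of 0.05. Both *MSTN* probes lie at 2.00 and 2.01, *FST* lies at -0.51, and the intervals of the other 10 probes include 0.

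Myostatin, the ligand, was measured by 2 probes, both well above background on all 21 arrays. With the brighter probe, A_73_P036291, the levels in BA were 4.29, 4.77 and 3.79 at 110 dpc, 3.12 and 4.26 at 180 dpc, 4.57, 4.39 and 4.17 at 210 dpc, and 3.81 and 4.18 at 260 dpc. In CH they were 2.50 and 2.46 at 110 dpc, 1.18, 2.05 and 2.71 at 180 dpc, 1.80, 2.35 and 1.85 at 210 dpc, and 1.82, 2.70 and 1.14 at 260 dpc. The lowest of the 10 BA foetuses (3.12) lay above the highest of the 11 CH foetuses (2.71). Only 4 of 20132 probes (0.0199%) put every BA foetus above every CH foetus and 0 did the reverse. The 4 were both *MSTN* probes, a probe of *RNF121*, a ubiquitin ligase of the endoplasmic reticulum and Golgi, and A_73_106483, which has no gene name here; the last 2 are named because the count was small, after their values were seen. By size of the average difference the *MSTN* probes ranked 3 and 4 of 20132.

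Averaged over stages, *MSTN* was 3.99-fold higher in BA, a log2 difference of 2.00 (SE 0.22, limma adjusted p = 3.7e-04). The exact permutation of breeds within stages (two-sided) gave p = 5e-05, the smallest its 20000 arrangements allow. By stage the difference was 1.80 at 110 dpc, 1.71 at 180 dpc, 2.37 at 210 dpc and 2.11 at 260 dpc, with standard errors of 0.40 to 0.44. No single stage was called (limma adjusted p = 0.10, 0.50, 0.075 and 0.23), although at each stage the BA foetuses lay above the CH foetuses of that stage, as they did for 0.0795% of tested probes (0.0695% had BA below at every stage). An interaction of breed and stage was not called (limma F test, adjusted p = 0.96). At 210 dpc the stage difference was called under 6 of 15 other settings and in 2 of 21 leave-one-out fits.

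The second probe, A_73_120254, gave BA levels of 2.56 to 3.90 and CH levels of -0.10 to 1.74. Its average difference was 2.01 (SE 0.20, limma adjusted p = 3.6e-04), 4.02-fold. Both probes thus placed every BA foetus above every CH foetus. Their *MSTN* deviations from the group means went together (r = 0.92 over 21 foetuses).

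Within slides and scan days the *MSTN* difference kept its direction. With each stage's mean removed, BA exceeded CH by 1.13 to 2.47 within the 5 slides that held both breeds and by 1.94 to 2.50 within the 3 scan days. Some of these comparisons rest on a single array of a breed. Among them, 1 slide and 1 scan day held 1 BA array. The slide scanned alone on its day held 1 CH array, and it counts both as a slide and as a scan day. The 2 BA sires gave ranges of 3.12 to 4.39 and 3.81 to 4.77, and the 2 CH sires 1.14 to 2.50 and 1.18 to 2.71. Females ranged from 3.12 to 4.77 in BA and from 1.14 to 2.50 in CH, and males from 3.79 to 4.29 in BA and from 1.82 to 2.71 in CH. Sire lies within breed, so that breed and the choice of sires cannot be told apart. Of 5 leukocyte markers, all with a probe, the mean level was 0.14 to 1.45 in BA and 0.10 to 1.07 in CH, 0.39 higher in BA on average over stages. Exact permutation of breeds within stages (two-sided) gave p = 0.013 for it, without adjustment. That was the lowest p among the marker lists of cell types and tissues. *CD3E* differed most among them (1.16) and was well above background on 13 of 21 arrays. *AIF1* gave 0.57, and *PTPRC*, *CD14* and *CD68* gave 0.06 to 0.08. The part of these cells in the *MSTN* difference was not tested.

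**Figure D2:**
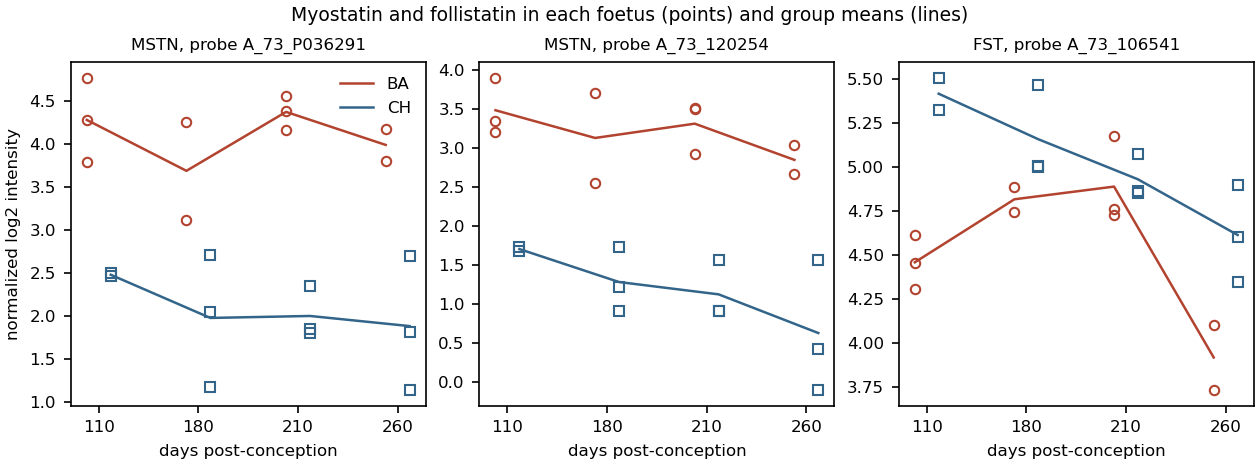
Normalized log2 intensity (y axis) of *MSTN* by both probes and of *FST* in each of 10 BA foetuses (circles) and 11 CH foetuses (squares) against stage (x axis, dpc, stages spaced evenly); lines join the group means. In both *MSTN* panels no CH foetus reaches any BA foetus, whereas for *FST* BA lies below CH at 110, 180 and 260 dpc and the breeds overlap at 210 dpc.

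Whether the change of *MSTN* with stage was called depended on the probe. Both probes read lower at 260 than at 110 dpc in each breed, and their changes were not compared by a test. With A_73_P036291 the level at 260 less that at 110 dpc was -0.29 (SE 0.44) in BA and -0.60 (SE 0.44) in CH, and their mean of -0.44 was not called (limma adjusted p = 0.23). With A_73_120254 the mean fell by 0.86 (SE 0.29, limma adjusted p = 0.016). That probe fell in CH (-1.08, adjusted p = 0.037) and read -0.64 in BA (adjusted p = 0.21). The difference between the breeds in this change was 0.44 (SE 0.58) and was not called. With the slide as a block the mean change of A_73_120254 was -0.50 and lost its call (limma adjusted p = 0.41), as it did without BA replicate 1 at 260 dpc (-0.76, limma adjusted p = 0.063). The CH fall was called in 10 of 14 other settings and in 17 of 21 leave-one-out fits.

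*INHBA* encodes the subunit that pairs with itself to form activin A, the other ligand measured. At 110 dpc its main probe, A_73_108840, read 5.02, 2.68 and 3.27 in BA and 3.16 and 3.07 in CH. At 260 dpc it read 3.01 and 1.496 in BA and 2.24, 0.94 and 1.65 in CH. The first BA foetus at 110 dpc stood far above the others of its group, and the breeds overlapped at every stage. From 110 to 260 dpc *INHBA* fell by 1.41 (SE 0.54) in BA and by 1.51 (SE 0.54) in CH, with limma adjusted p of 0.038 and 0.028.

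The mean of the *INHBA* changes in both breeds was a fall of 1.46 (SE 0.38, limma adjusted p = 0.0031), to 0.365 of the level at 110 dpc. No single step between neighbouring stages was called. Without BA replicate 1 at 110 dpc the BA change was -0.73 (limma adjusted p = 0.19), and without BA replicate 2 at 260 dpc it was -0.65 (limma adjusted p = 0.45). The CH change lost its call without any 1 of CH replicates 1 (-1.46) and 2 (-1.55) at 110 dpc or 2 (-1.17) and 3 (-1.53) at 260 dpc, with adjusted p of 0.051 to 0.11. Under other settings the BA change was called in 6 of 14 and the CH change in 11 of 14. In females alone the BA change was -0.43 and the mean -0.95. The only BA female at 110 dpc read 2.68, so that BA change rests on a single foetus at 110 dpc. The dimmer probe, A_73_P446436, read -0.35 for the mean change (SE 0.17, limma adjusted p = 0.082). The breed difference of *INHBA* averaged over stages was 0.16 with a 95% interval of -0.40 to 0.72, the widest of the 13 probes.

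Follistatin, which neutralises activins and myostatin, had 1 probe, A_73_106541. BA foetuses read 4.61, 4.46 and 4.31 at 110 dpc, 4.89 and 4.75 at 180 dpc, 5.17, 4.73 and 4.76 at 210 dpc, and 4.10 and 3.73 at 260 dpc. CH foetuses read 5.32 and 5.50 at 110 dpc, 5.47, 5.01 and 4.997 at 180 dpc, 4.85, 5.07 and 4.86 at 210 dpc, and 4.34, 4.89 and 4.60 at 260 dpc. At 110, 180 and 260 dpc every BA foetus lay below every CH foetus of its stage, which held for 17.5%, 13.6% and 10.1% of all tested probes at those stages. At 210 dpc a BA foetus had the highest value of its stage and the breeds overlapped, where 5.62% of probes had BA above and 4.91% below.

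Averaged over stages *FST* was lower in BA by 0.51 on the log2 scale (SE 0.09, limma adjusted p = 0.024), which makes CH 1.42-fold higher. The exact permutation of breeds within stages gave p = 0.0012 (two-sided, 20000 arrangements). The difference was -0.96 at 110 dpc (SE 0.19, limma adjusted p = 0.047), -0.34 at 180 dpc, -0.04 at 210 dpc and -0.70 at 260 dpc (adjusted p = 0.41). The interaction of breed and stage had an unadjusted p of 0.011 (limma F test) and an adjusted p of 0.76, so the stages were not shown to differ in it.

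The size of the *FST* difference was steadier than its call. Under 14 other settings it ranged from -0.55 to -0.43 and was called in 8. It was not called, for example, with the slide as a block (-0.43, limma adjusted p = 0.12) or in females alone (-0.49, adjusted p = 0.15). Leaving out 1 foetus gave -0.56 to -0.46, and the call was lost without BA replicates 1 (-0.53) or 2 (-0.49) at 180 dpc, BA replicate 2 at 210 dpc (-0.49), BA replicate 2 at 260 dpc (-0.46) or CH replicate 2 at 110 dpc (-0.49), with limma adjusted p of 0.052 to 0.078. The call at 110 dpc held in 4 of 15 other settings and in 6 of 21 leave-one-out fits.

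Within the 5 slides with both breeds *FST* differed by -0.56 to -0.20, and within the 3 scan days by -0.80 to -0.25. BA was thus lower within every slide and scan day that held both breeds. As for *MSTN*, some of these comparisons rest on a single array of a breed, and the slide scanned alone counts in both sets. Over all stages the BA sires spanned 4.31 to 4.89 and 3.73 to 5.17, and the CH sires 4.34 to 5.32 and 4.89 to 5.50, ranges that overlapped. Among the marker lists of 10 cell types or tissues, the 4 with the lowest average difference between BA and CH over stages were adipocyte (-0.26, 3 of 4 markers with a probe), smooth muscle (-0.24, 3 of 3), nerve (-0.21, 4 of 4) and fibroblast (-0.17, 5 of 5). Exact permutation of breeds within stages (two-sided) gave p = 0.64, 0.25, 0.19 and 0.20 for them, in that order. The adipocyte markers went both ways: *PLIN1* gave 0.08, *FABP4* -0.37 and *CIDEC* -0.48, with *PLIN1* and *CIDEC* under the filter. Fibroblast markers ran from -0.32 (*PDGFRA*) to -0.01 (*DCN*). The fibroblast means spanned 6.69 to 7.93 in BA and 6.47 to 7.87 in CH, and the adipocyte means -2.08 to 2.18 in BA and -2.10 to 1.35 in CH. As a description over 21 foetuses that share arrays and scaling, deviations of *FST* from the group means correlated with those of the adipocyte markers (r = 0.55, rho = 0.53) and the fibroblast markers (r = 0.51, rho = 0.49), and at r = 0.09 and -0.31 with the nerve and smooth muscle markers. Without the 2 foetuses farthest from the *FST* median the adipocyte and fibroblast values were 0.59 and 0.56. The part of these cells in the *FST* difference was not tested.

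*FST* also fell towards birth in both breeds. From 110 to 260 dpc it fell by 0.54 (SE 0.19) in BA and by 0.80 (SE 0.19) in CH, with limma adjusted p of 0.023 and 0.0018. The mean fall was 0.67 (SE 0.13, limma adjusted p = 2.8e-04). The group means of *FST* in BA were 4.46, 4.82, 4.89 and 3.92 in order of stage, and those in CH 5.41, 5.16, 4.93 and 4.61, so that the CH mean was lower at each later stage, while the BA mean was higher at 180 and 210 dpc than at 110 dpc and lower at 260 dpc. Averaged over the breeds, 260 less 210 dpc was -0.64 (SE 0.13, limma adjusted p = 5.6e-04), where 44.7% of tested probes were called and 19.9% were called as lower. The earlier steps, in which the means of the breeds went opposite ways, averaged 0.05 and -0.08 and were not called. Median scaling gave -0.41 for the BA fall and ended its call (limma adjusted p = 0.11). In females alone, with a single BA foetus at 110 dpc, the BA change was -0.54. The BA fall lost its call without BA replicate 1 at 110 dpc (-0.46, limma adjusted p = 0.073) or BA replicate 2 at 260 dpc (-0.35, limma adjusted p = 0.25).

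*FSTL3*, a relative of follistatin that binds the same ligands, had 3 probes that did not agree. The main probe, A_73_113975, read 4.10, 3.36 and 3.95 in BA and 4.06 and 4.28 in CH at 110 dpc, and 4.64 and 4.18 in BA and 4.17, 3.61 and 3.85 in CH at 260 dpc. BA lay lower on average at 110, 180 and 210 dpc (-0.37, -0.31 and -0.30) and above every CH foetus at 260 dpc (0.54), which held for 8.9% of tested probes. None of these differences was called. From 110 to 260 dpc BA changed by 0.61 (SE 0.28), with a limma adjusted p of 0.082, and CH by -0.29 (SE 0.28), with an adjusted p of 0.40. The difference between them was 0.90 (SE 0.40, unadjusted p = 0.038, adjusted p = 0.68). The BA change passed the threshold under 5 of the other settings, median scaling among them (0.74, limma adjusted p = 0.030).

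The probe A_73_P383631 of *FSTL3* instead rose alike in both breeds, by 0.84 in BA and 0.84 in CH (SE 0.23 each, limma adjusted p = 0.0050 and 0.0049). Its mean levels went from 0.99 to 1.83 in BA and from 0.98 to 1.82 in CH. With the values of the authors' table, which carry no scaling between arrays, the mean rise was 0.45 and was not called. The BA rise lost its call without BA replicate 2 at 260 dpc (0.67, limma adjusted p = 0.075) and the CH rise without CH replicate 1 at 110 dpc (0.64, adjusted p = 0.080). The third probe, A_73_P329431, was under the filter and, like the main probe, read higher in BA at 260 dpc (0.56) and lower before. Over the 8 group means the main probe correlated at r = 0.88 with A_73_P329431 and at r = 0.29 with A_73_P383631, as a description of probes that share arrays. In BA all 3 probes read higher at 260 than at 110 dpc (0.61, 0.84 and 0.62 for A_73_113975, A_73_P383631 and A_73_P329431). In CH the direction of *FSTL3* depended on the probe chosen (-0.29, 0.84 and -0.26).

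The type II receptors showed no called breed difference. *ACVR2B*, a high-affinity receptor of myostatin, read 2.16, 2.56 and 2.48 in BA and 2.46 and 2.47 in CH at 110 dpc. At 180 dpc it read 2.85 and 2.85 in BA and 2.46, 2.70 and 2.47 in CH, and at 210 dpc 2.88, 2.88 and 2.35 in BA and 2.49, 2.53 and 2.10 in CH. At 260 dpc it read 2.34 and 2.44 in BA and 2.46, 2.43 and 2.47 in CH. BA lay above CH at 180 dpc, which held for 11.9% of tested probes, and the breeds overlapped at the other stages. The average difference was 0.13 with a 95% interval of -0.04 to 0.30 (limma adjusted p = 0.54). From 110 to 260 dpc the mean change was -0.01, with an interval of -0.26 to 0.24.

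*ACVR2A*, the other type II receptor, had 3 tested probes. The main probe, A_73_P108621, read 1.01 to 1.40 in BA and 0.79 to 1.46 in CH over all stages. Its average breed difference was -0.003 (95% interval -0.16 to 0.15), which for this probe bounds a difference in either direction at about 0.16. That bound does not cover A_73_P094611, whose average difference was 0.19 (95% interval -0.04 to 0.43). At 110 dpc A_73_P094611 gave 0.59 (limma unadjusted p = 0.021, adjusted p = 0.27). For A_73_P043751 the average difference was 0.02 (95% interval -0.12 to 0.17). The mean change of the main probe from 110 to 260 dpc was -0.18 (SE 0.10, limma adjusted p = 0.15). A_73_P094611 read 0.88, 1.59 and 1.65 in BA and 0.97 and 0.60 in CH at 110 dpc, and at 260 dpc 0.46 and 0.63 in BA and 0.73, 0.68 and 0.54 in CH. The BA fall was -0.83 (SE 0.23, limma adjusted p = 0.0059), while CH read -0.14 (adjusted p = 0.64). The difference between these changes was -0.69 (SE 0.32, adjusted p = 0.70) and was not called, and with the slide as a block the BA fall was not called (-0.71, adjusted p = 0.088), nor was it without BA replicate 1 at 260 dpc (-0.74, adjusted p = 0.053). Its mean over the breeds was -0.48 (limma adjusted p = 0.015), which lost its call with the slide as a block (-0.26, adjusted p = 0.44), with median scaling (-0.38, adjusted p = 0.052), without BA replicate 1 at 260 dpc (-0.44, adjusted p = 0.056) and without CH replicate 1 at 110 dpc (-0.39, adjusted p = 0.080). A_73_P043751 gave -0.14 for the mean change and was not called.

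*SMAD2*, which carries the signal of activin-type receptors to the nucleus, had the steadiest change with stage. Its main probe, A_73_P051227, read 3.50, 3.60 and 3.39 in BA and 3.69 and 3.54 in CH at 110 dpc. It read 3.12 and 2.82 in BA and 2.93, 2.94 and 2.94 in CH at 180 dpc, and 2.71, 2.82 and 2.84 in BA and 2.96, 2.84 and 2.87 in CH at 210 dpc. At 260 dpc it read 2.59 and 2.60 in BA and 2.63, 2.33 and 2.71 in CH. The breeds overlapped at every stage.

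*SMAD2* fell by 0.90 (SE 0.12) in BA and by 1.06 (SE 0.12) in CH from 110 to 260 dpc, with limma adjusted p of 9.4e-06 and 1.6e-06. The mean fall was 0.98 (SE 0.09, limma adjusted p = 2.7e-08), 1.97-fold. The step from 110 to 180 dpc gave -0.61 (limma adjusted p = 7.1e-05) where 24% of tested probes were called (12.5% higher, 11.4% lower). The step from 180 to 210 dpc gave -0.11 and was not called, where 9.68% of probes were (5.35% higher, 4.33% lower), and that from 210 to 260 dpc gave -0.26 (limma adjusted p = 0.014). The dimmer probe A_73_P112906, under the filter, read -1.15 for the mean change. The change of A_73_P051227 in each breed was called in all 14 other settings and in all 21 leave-one-out fits. Its breed difference was -0.04, with a 95% interval of -0.16 to 0.09.

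*SMAD3*, the other activin-type SMAD, was dim and variable. Its main probe, A_73_120129, ranged from -0.23 to 0.87 in BA and from -0.07 to 0.53 in CH. The average breed difference was 0.11 (95% interval -0.15 to 0.37, limma adjusted p = 0.75). The mean change from 110 to 260 dpc was -0.06 (SE 0.18, limma adjusted p = 0.79). The second probe, A_73_P304921, lay under the filter and gave 0.12 between the breeds. At 180 dpc the main probe read 0.59 and 0.55 in BA, above the 0.48, 0.42 and 0.53 in CH, an order that 11.9% of tested probes shared.

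In all, 3 of the 8 genes (*FST*, *INHBA* and *SMAD2*) fell and 0 rose from 110 to 260 dpc in each breed and in their mean. The called share of all probes was 52.4% in BA, 52.2% in CH and 64.1% for the mean, with 24.8%, 24.7% and 30.8% called as lower and 27.6%, 27.5% and 33.3% as higher. In either direction the count of genes lies below the background. By direction, the count that fell lies above the share called as lower, and the count that rose below the share called as higher. With 8 genes, these gaps were not tested. The median of the 8 mean changes was -0.31, against 0.04 for all tested probes. The difference between breeds in the change was called for 0 of 8 genes and for 0% of all probes by limma. At an unadjusted p under 0.05 it counted 1 of the 8, *FSTL3*, and 1427 of 20132 probes.

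**Figure D3:**
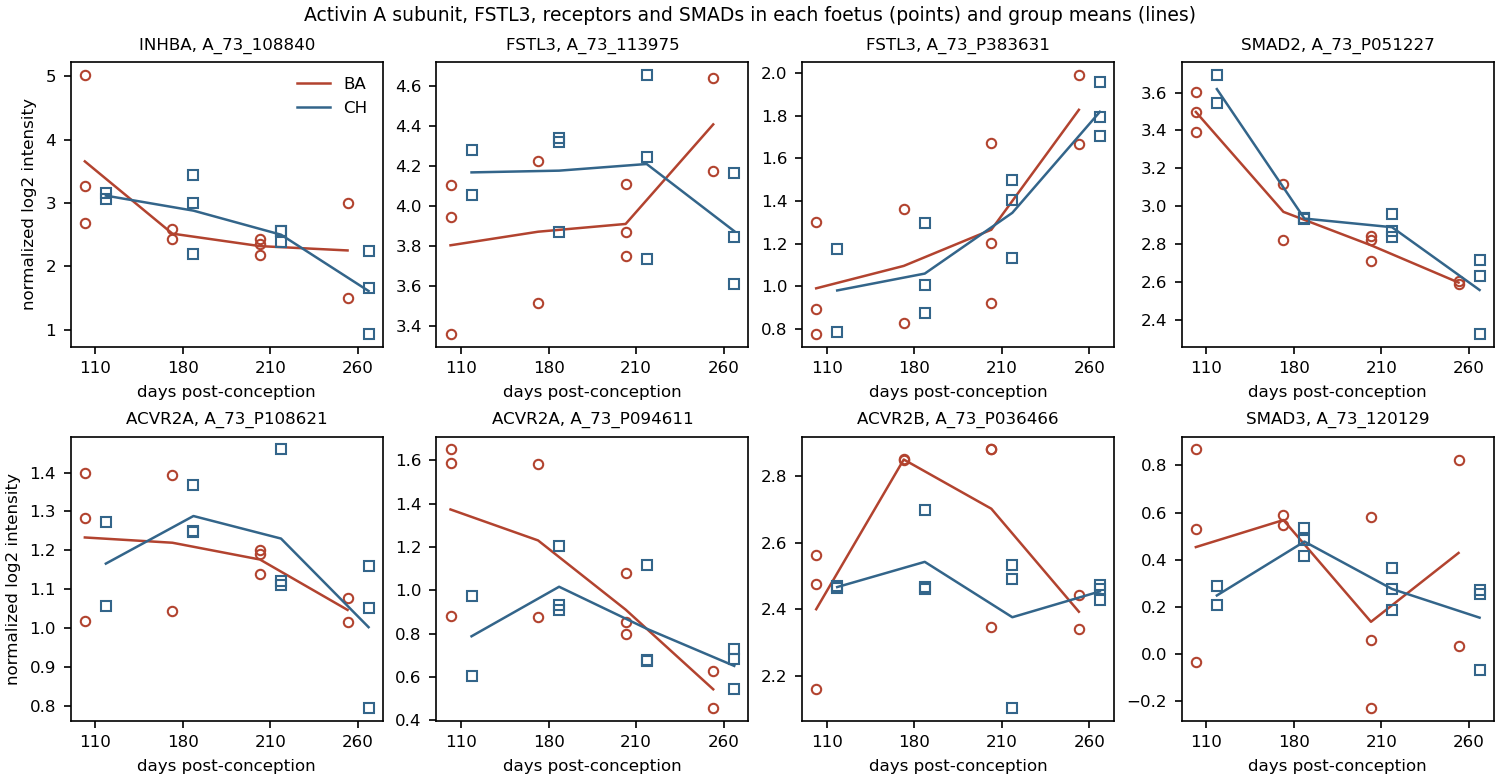
Normalized log2 intensity (y axis, a scale of its own in each panel) of *INHBA*, *FSTL3* by 2 probes, *SMAD2*, *ACVR2A* by 2 probes, *ACVR2B* and *SMAD3* in 10 BA foetuses (circles) and 11 CH foetuses (squares) against stage (x axis, dpc, spaced evenly), with lines through the group means. *SMAD2* falls from 3.39 to 3.69 at 110 dpc to 2.33 to 2.71 at 260 dpc in both breeds, while the 2 *FSTL3* panels differ in shape.

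Whether any of these genes followed *MSTN* was examined between groups and within them. Over the 8 group means the correlation with the main *MSTN* probe was highest for *ACVR2B* (r = 0.32) and lowest for *FST* (r = -0.50), with *INHBA* at 0.26, *SMAD3* at 0.23, *SMAD2* at 0.10, *ACVR2A* at 0.01 and *FSTL3* at -0.26. Among 7931 other named genes *FST* ranked 7626 from the top and *ACVR2B* 858. The median over those genes was -0.04. The 8 means share arrays and scaling, and these values are a description without a test. The genes most like *MSTN* by this measure were *PEX3* (r = 0.93), a peroxisome assembly factor, LOC534578 (0.93), LOC512684 (0.92), *TAP2* (0.92), a peptide transporter of antigen presentation, and *RNF121* (0.92). The least like were *ZNF470* (-0.97), *HSD17B7* (-0.90), an enzyme of cholesterol synthesis, *RBL2* (-0.90), a retinoblastoma-family protein, *UBXN8* (-0.88) and *SNX15* (-0.86).

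Within groups, deviations from the 8 group means were compared so that the breed difference did not enter. The second *MSTN* probe tracked the deviations of the main probe with r = 0.92 and rho = 0.91 (exact permutation of foetuses within groups, two-sided, p = 1.9e-04 and 2.4e-04, 62208 arrangements). Without the 2 foetuses farthest from the median r was 0.92. Both probes read the same transcript on the same arrays. Their agreement therefore shows that the probes read alike on each array. With 1 array per foetus, it cannot separate the deviation of a foetus from an error shared by its array. Nor can it show that another gene could be seen to follow these deviations. No probe of another pathway gene had an r of that size.

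The main *SMAD2* probe gave r = -0.50 and rho = -0.37 (exact permutation p = 0.19 and 0.25), and -0.41 without the 2 farthest foetuses. Its dimmer probe, A_73_P112906, gave r = -0.12 and rho = -0.05 (exact permutation p = 0.66 and 0.85). The main *FSTL3* probe gave r = -0.41 and rho = -0.42 (exact permutation p = 0.15 and 0.15), and -0.35 without the 2 farthest foetuses. For that probe the correlation was -0.82 over the 10 BA and -0.14 over the 11 CH foetuses, a difference that was not tested. A_73_P383631 of *FSTL3* gave r = -0.14, with -0.61 in BA and 0.34 in CH. A_73_P329431 gave r = -0.32, with -0.36 in BA and -0.30 in CH. The main *ACVR2A* probe gave r = 0.35 and rho = 0.34 (exact permutation p = 0.27 and 0.27), and A_73_P094611 and A_73_P043751 gave r = 0.20 and 0.29. *FST* gave r = -0.03 and rho = -0.05 (exact permutation p = 0.93 and 0.88).

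The slope on *MSTN* in limma was called for 0 of the 7 other tested genes and for 0% of 20130 probes. At an unadjusted p under 0.05 it counted 0 of the 7 and 1080 of 20130, and the lowest adjusted p among these genes was 0.96. Over all tested probes the middle 95% of r lay between -0.50 and 0.56, so the main *SMAD2* probe sat at its lower edge. In all, 16 probes of the pathway were compared with the main *MSTN* probe in this way. The fit had 13 residual degrees of freedom before the slope, and the 95% interval of the *FST* slope ran from -0.24 to 0.22 per unit of *MSTN*.

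**Figure D4:**
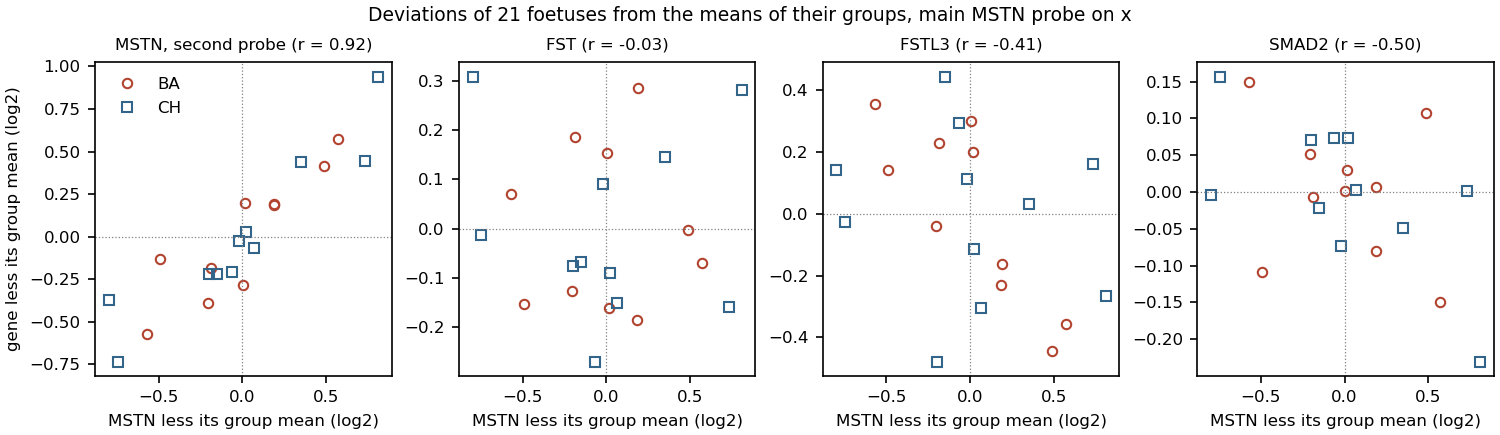
Deviation of each of 21 foetuses from the mean of its breed-by-stage group (log2) for the second *MSTN* probe, *FST* and the main probes of *FSTL3* and *SMAD2* (y axis) against that of the main *MSTN* probe (x axis), BA as circles and CH as squares. The second *MSTN* probe follows the first (r = 0.92), while *FST* is flat (r = -0.03) and *FSTL3* (r = -0.41) and *SMAD2* (r = -0.50) are scattered.

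A wider list of 81 genes of the pathway set these values in context. It held other ligands and their processing enzymes, antagonists and matrix proteins that bind TGF-beta family ligands, receptors, SMAD regulators, and targets and myogenic factors. Of these 64 had a probe and 46 were tested. Between the breeds 0 of 46 were called in limma, and 5 had an unadjusted p under 0.05, as did 2512 of all 20132 tested probes, so the list lay near the background. Differences ranged from -0.57 to 0.33 with a median of -0.11, against -0.01 for all tested probes. *WFIKKN2*, a secreted binder of myostatin and GDF11 named here after its value was seen, had the lowest adjusted p among those lower in BA (-0.50, SE 0.12, limma adjusted p = 0.090). Its level averaged 0.79 higher at 260 than at 110 dpc (limma adjusted p = 8.7e-04), the opposite direction to *FST*. The change was not a steady rise, since the means were lower at 180 and 210 dpc than at 110 dpc. In order of stage they were 1.59, 0.76, 0.74 and 2.59 in BA and 2.41, 1.21, 1.06 and 3.00 in CH.

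From 110 to 260 dpc the wider list moved in both directions: 17 genes rose, 15 fell and 14 of the 46 were not called, beside 64.1% of all tested probes. By lowest p the genes that rose were *TCAP*, a sarcomeric Z-disc protein reported to bind myostatin (3.72), *WWP1*, a ubiquitin ligase (2.29), *TRIM63*, a muscle ubiquitin ligase (3.19), *PPM1A*, a SMAD phosphatase (0.83), *INHA*, the inhibin alpha subunit (1.48), and *FKBP1A*, which binds type I receptors (0.79). Those that fell were *TGFB2*, a ligand (-1.33), *MYF5*, a myogenic factor of myoblasts (-2.17), *CDKN1C* (-1.52) and *CDKN1A* (-2.97), inhibitors of the cell cycle, *TGIF1*, a SMAD corepressor (-1.34), and *FSTL1*, a follistatin-like glycoprotein (-1.41). Each of these 12 had a limma adjusted p of 1.5e-06 or less.

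By role, 3 of 9 tested antagonists and binding proteins rose and 5 fell, with a median of -0.61, beside 33.3% of all tested probes called as higher and 30.8% as lower. The fallers included the matrix proteins *BGN* (-1.61, limma adjusted p = 8.1e-04), *FMOD* (-1.57, adjusted p = 0.0069) and *DCN* (-0.61, adjusted p = 0.010), and the latency protein *LTBP3* (-1.31, adjusted p = 3.8e-06). Of 10 SMADs and their regulators 4 rose and 2 fell, and of 5 receptors 2 rose and 2 fell. Of 5 ligands or ligand subunits 2 rose and 2 fell, and of 17 targets and myogenic genes 6 rose and 4 fell. No processing enzyme of the ligands was among the genes tested. *SMAD4*, the partner of SMAD2 and SMAD3, gave -0.09 (adjusted p = 0.40) and was not called. Means of the fibroblast markers went from 7.51 at 110 dpc to 6.87 at 260 dpc and those of the muscle fibre markers from 8.998 to 10.49. The part of tissue composition in these changes, and in the falls of *FST*, *INHBA* and *SMAD2*, was not tested.

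**Figure D5:**
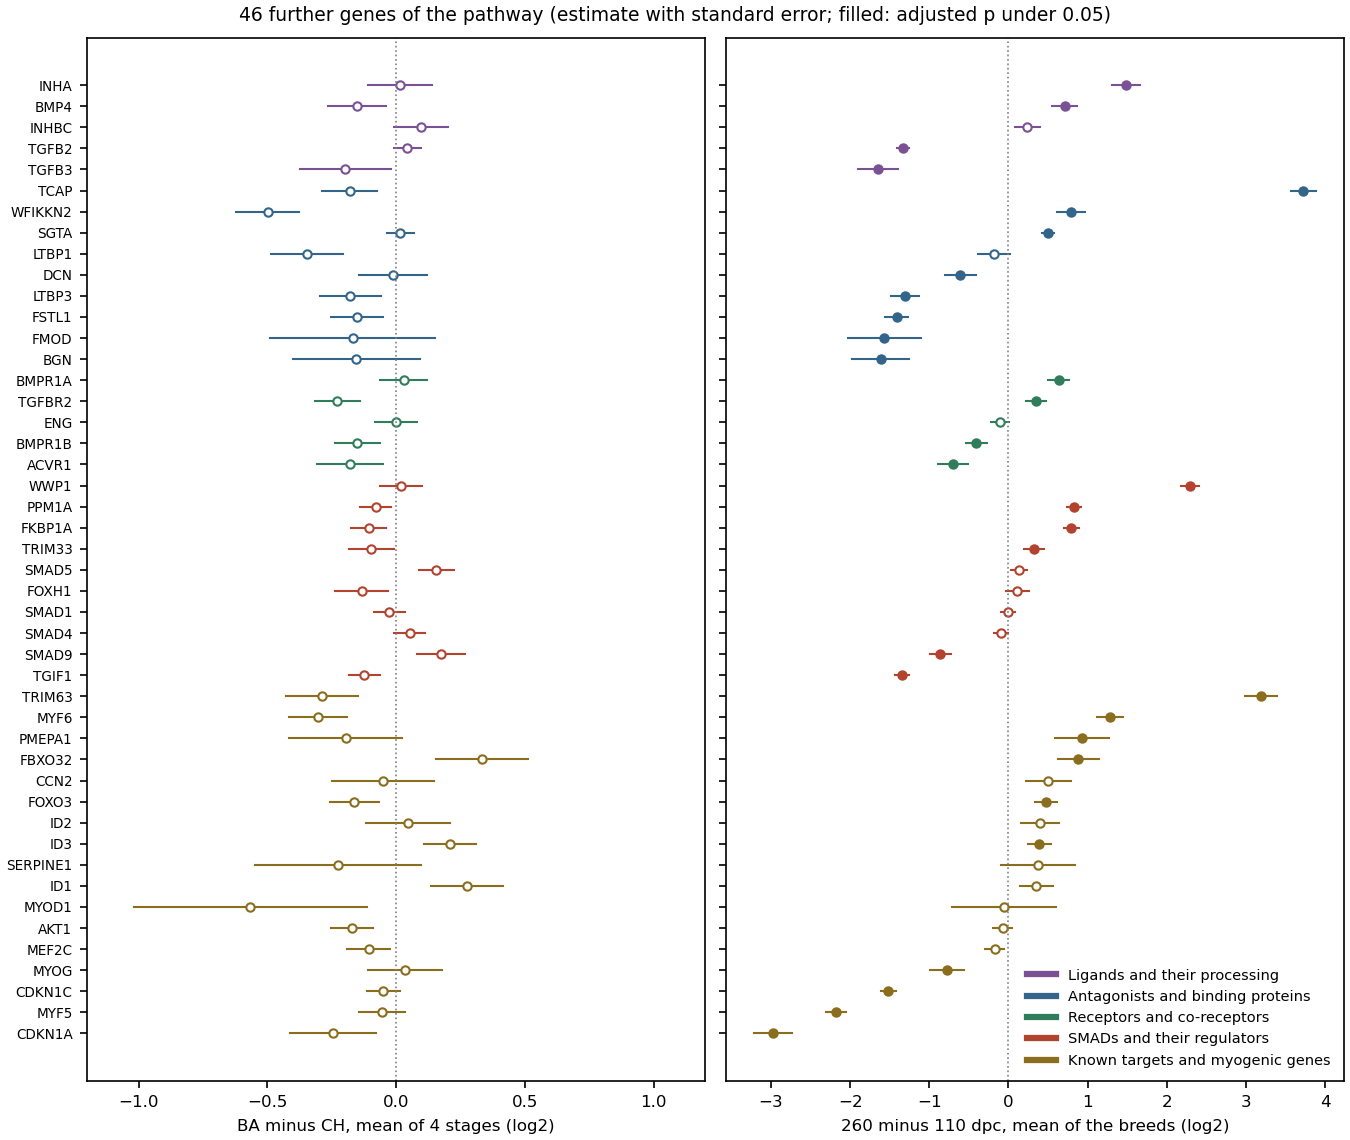
Difference between BA and CH averaged over stages (left) and change from 110 to 260 dpc averaged over breeds (right), both in log2 on the x axis, for the 46 tested genes of the wider list grouped by role, with standard errors; filled points had an adjusted p under 0.05. No point is filled on the left, where *WFIKKN2* lies at -0.50, and 32 are filled on the right, from *CDKN1A* at -2.97 to *TCAP* at 3.72.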

How the data were processed

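Muscle RNA of 21 foetuses was labelled with Cy3 and hybridised to single-colour 4x44K bovine arrays. The deposited intensities are processed signals that the authors made with Feature Extraction 10.7, with detrending per the file headers and, per the study's methods, no background subtraction. The authors' value table holds log2 intensities of the same signals: 99.98% of its values lay within 0.01 of log2 of the processed signal, so it carries no scaling between arrays. The depth of an array has no count, and the number of arrays limits the precision.

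Control and outlier spots were left out, spots of a probe averaged, log2 taken and each array's 75th percentile set to one value. A probe was tested if its mean exceeded 0, the median probe of a typical array, in at least 7 of the 8 groups. Probes were named through their RefSeq transcripts. All probes of the 10 genes are reported, a gene being represented by its brightest tested probe. Of the wider list up to 6 genes in each direction with the lowest p are named, and the 5 named genes most and least like *MSTN*. The members and lists were chosen with earlier results of these data known. The 4 probes under the filter were fitted with all probes.

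limma 3.58.1 (R 4.3.3) was fitted to the 8 breed-by-stage means over all 21 arrays, with Benjamini-Hochberg adjustment, after it was tested on simulated data. Intervals are 95%. Slides and scan days served as blocks. Alternatives were normexp background correction with an offset of 50, quantile and median scaling, the authors' table, other filters, sex, females alone, slide, sire or replicate blocks, a robust variance trend and leave-one-out. Scan day, omission of the 4 arrays of the slide scanned alone, and the interaction over 4 stages were chosen after seeing the data. The foetuses are separate animals.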

Additional observations from a re-analysis of the deposited data

How the results depend on the processing

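The *MSTN* difference averaged over stages was called under all 15 other settings (1.80 to 2.47) and without any 1 foetus (1.85 to 2.14). The *FST* difference kept its direction but lost its call with the authors' table (-0.45), no filter (-0.51), females alone (-0.49), slide as a block (-0.43), scan day as a block (-0.49) and without the slide scanned alone (-0.50), and ranged from -0.56 to -0.46 without 1 foetus. Under those 6 settings 1 of the 8 genes, *MSTN*, was called between breeds, and without 1 foetus 1 to 2 were. At 110 dpc 0 genes were called under median scaling, the authors' table, no filter, the detection filter, the sex covariate, females alone, the slide, replicate and scan day blocks, without the slide scanned alone and with that stage's arrays alone, and 0 to 1 without 1 foetus. At 210 dpc 1 gene, *MSTN*, was called under quantile and median scaling, the authors' table, the replicate block, sire as a random block and that stage's arrays alone, and 0 to 1 without 1 foetus. The change from 110 to 260 dpc was called for 5 genes instead of 3 with the authors' table, where the median of all probes shifted by -0.36, and in BA for 1 to 3 genes without 1 foetus. Other causes were not tested.

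Replicate numbers did not pair the samples: deviations of same-numbered foetuses had a median r of 0.009 over 66 pairs, and of others -0.009 over 126. With the replicate block *MSTN* gave 1.98 and *FST* -0.52 over stages, and both were called. The called probes over stages fell from 72 to 45, and at 110 dpc from 55 to 2.

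The number of probes called moved more than the values. Between breeds over stages it was 17 to 209 under the other settings and 25 to 218 without 1 foetus, and at 110 dpc 0 to 72 and 1 to 183. At 180 dpc it was 0 to 12 and 0 to 4, at 210 dpc 0 to 11 and 0 to 4, and at 260 dpc 0 to 6 and 0 to 31. For the change from 110 to 260 dpc it was 7020 to 15030 in BA and 6536 to 14934 in CH.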
